A study of Bos taurus with 27 samples.

Results

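Iron handling in the calf colon was followed through 7 genes, matched by symbol to a single identifier among the 24616 genes of the count table. They were the exporter SLC40A1 (ferroportin, ENSBTAG00000010498), the ferroxidase HEPH (hephaestin, ENSBTAG00000047416), the importers SLC11A2 (DMT1, ENSBTAG00000032914) and TFRC (transferrin receptor, ENSBTAG00000032719), the ferritin chains FTH1 (ENSBTAG00000011184) and FTL (ENSBTAG00000013343), and ACO1 (iron regulatory protein 1, ENSBTAG00000000555). The list held 8 genes, and the remaining member, IREB2 (iron regulatory protein 2), could not be matched to a single identifier in the tables used and was not analysed here.

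Enterocytes take up ferrous iron from the gut lumen through SLC11A2, store it in ferritin, a shell of heavy (FTH1) and light (FTL) chains, and release it to the blood through SLC40A1, the known iron exporter of mammalian cells, with HEPH oxidising the released iron so that transferrin can bind it. TFRC brings transferrin-bound iron into cells, and macrophages also store iron and export it through SLC40A1. When a cell is short of iron, iron regulatory proteins bind iron responsive elements in messenger RNAs, which blocks translation of the ferritin chains and protects the TFRC message from decay, so part of this control acts on protein without a matching change in RNA.

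The samples were 27 colon segments, each from 1 male Holstein calf killed at 51 h of age, with 9 calves in each treatment. The first colostrum, from a pooled and pasteurised product, was given by oesophageal tube in TRT0 at 0 h after birth, in TRT6 at 6 h and in TRT12 at 12 h, and all calves received milk replacer afterwards. Each treatment held 4 calves from primiparous heifers (H) and 5 from multiparous cows (C), and the parity of the dam was taken from the supplementary table of the study, since the sample labels do not give it. Iron status of the calves was not given in the sources used here.

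The libraries held between 1163791 and 4202593 gene counts, so 1 CPM (count per 1000000 gene counts of the calf) stood for 1.16 to 4.2 reads. These totals were far below the mean number of reads per sample that the study reported, and the gap was not examined here. The libraries had been sequenced in 3 lanes, with 11 calves in lane 6 and 11 in lane 7 of a first run. Another run had 5 calves in lane 1, and that last lane held no TRT0_H, TRT6_H or TRT12_C calf. Markers of the labelled tissue were present: all 9 epithelial markers with an identifier (of 11 listed) and all 6 smooth muscle markers reached 1 CPM in every calf. The liver transcript TTR, the only 1 of 3 listed liver markers with an identifier, averaged 0.917 CPM. It had 0 reads in 9 calves and reached 1 CPM in 10 (highest 2.32 CPM). Since the segments were whole tissue, fewer cells of a type and less RNA per cell cannot be told apart in any value given here.

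All 7 genes were above 1 CPM in 27 of 27 calves and passed the filter on low counts. SLC40A1 averaged 883 ± 257 CPM (SD, n = 27) and ranked 55 by mean CPM in the table. SLC11A2 averaged 237 CPM, FTH1 197 CPM, ACO1 187 CPM, TFRC 102 CPM, HEPH 94.7 CPM and FTL 94.4 CPM. These means are not corrected for transcript length, so they give no order of abundance between the genes. The spread between calves differed greatly from gene to gene. The SD of SLC11A2 was 54.7% of its mean and that of TFRC 38.6%, against 10.4% for ACO1 and 16.6% for HEPH, while counting error at these depths came to between 2.45% (SLC40A1) and 7.42% (HEPH). The biological coefficient of variation that edgeR fitted within groups was 45.5% for SLC11A2, higher than that of 95.2% of the 13943 genes tested, and 15.7% for ACO1, where the median gene had 19.5%.

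**Figure D1:**
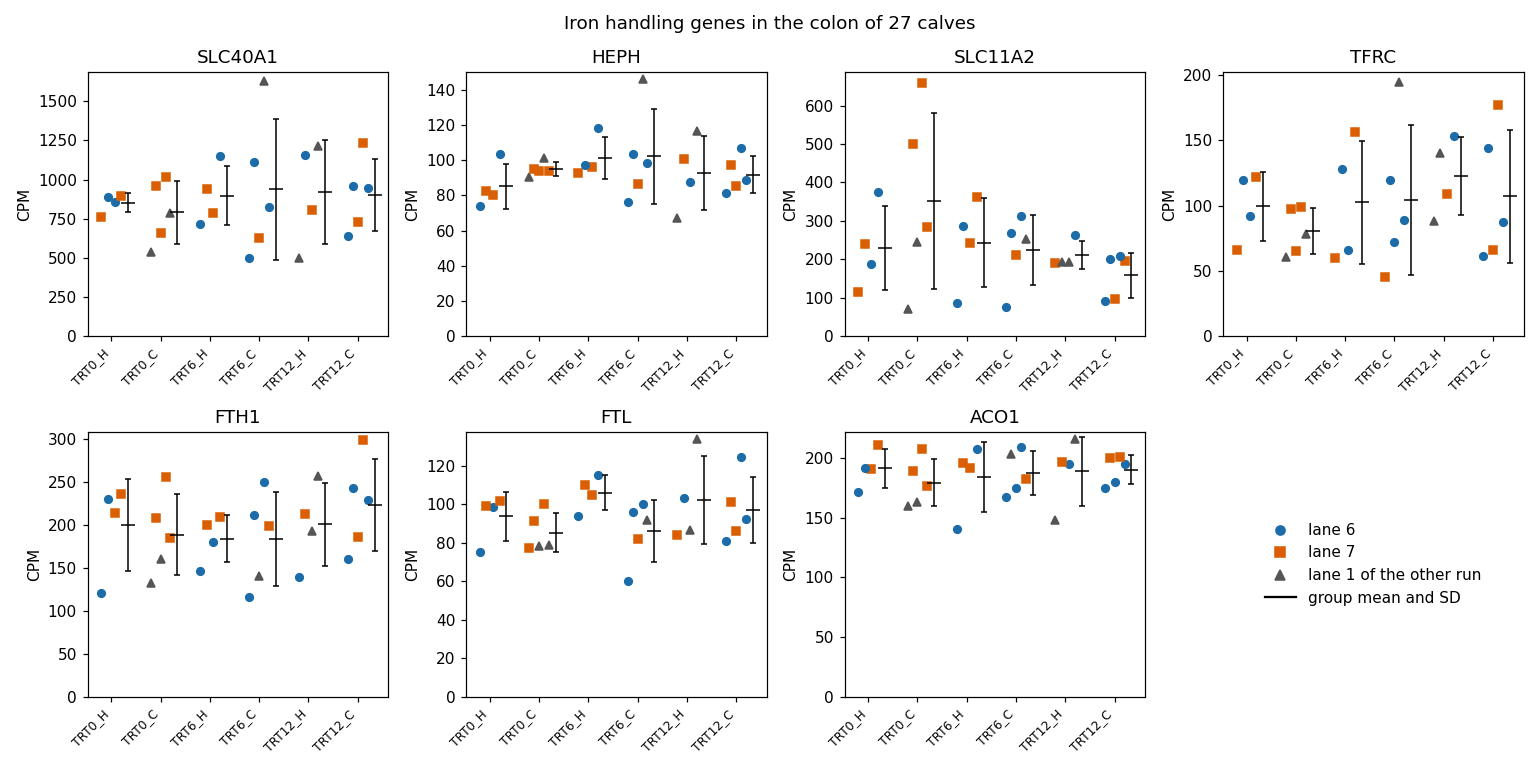
CPM of the 7 iron handling genes (vertical axes, starting at 0) in each of the 27 calves, by treatment and dam parity (horizontal axes); symbols mark the sequencing lane, and the black dash and bar give the group mean and SD. The groups overlap for every gene, and SLC11A2 spreads from 70.8 to 658 CPM within TRT0_C.

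The question of the design was whether the time of the first colostrum meal or the parity of the dam altered these genes. Of the 7 genes, 0 were called at an adjusted p of 0.10 and a fold change of 1.2 (edgeR's quasi-likelihood test, Benjamini-Hochberg adjustment over 13943 genes) in any of the 13 contrasts between treatments, parities or their combinations, against 0.0% of all genes in each. At an unadjusted p under 0.05, 3 of the 91 tests of the members passed, against 4.19% of the tests of all genes in those contrasts. Those 3 were SLC11A2 in TRT12_C vs. TRT0_C and FTL in TRT6_C vs. TRT6_H and in C vs. H. No member was under 0.05 in TRT6 vs. TRT0, TRT12 vs. TRT0 or TRT12 vs. TRT6, where 3.13%, 9.37% and 3.14% of all genes were. The same held for the H calves in TRT6_H vs. TRT0_H (3.35% of all genes), TRT12_H vs. TRT0_H (3.56%) and TRT12_H vs. TRT6_H (1.8%). Among C calves, 0 members were under 0.05 in TRT6_C vs. TRT0_C (1.95%) and TRT12_C vs. TRT6_C (6.71%), and between parities in TRT0_C vs. TRT0_H (2.52%) and TRT12_C vs. TRT12_H (2.68%). Over the same 13 contrasts DESeq2 called 0 members against 0.0337% of all genes, edgeR's likelihood ratio test 0 against 0.00441% and edgeR's exact test 0 against 0.0789%. The exact test made most of its calls in TRT12_C vs. TRT0_C (93 genes, 0.667%), and DESeq2 in TRT12 vs. TRT0 (51 genes, 0.366%). The test over the 3 treatments called 0 members (0.0% of all genes), with 0 members at an unadjusted p under 0.05 where 5.39% of all genes were, and the interaction of treatment and parity called 0 members (0.00717% of all genes), again with 0 members under an unadjusted p of 0.05 (2.67% of all genes). The lane of sequencing called 0 members too (4.19% of all genes), with 0 members under an unadjusted p of 0.05 (17.6% of all genes).

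SLC40A1, the exporter, did not separate the groups. In TRT0_H it stood at 763, 860.3, 888 and 895 CPM, and in TRT0_C at 535, 658, 789, 959.6 and 1018 CPM. The TRT6_H calves had 719, 787, 938 and 1149 CPM and the TRT6_C calves 500.1, 624.9, 825, 1113 and 1631 CPM. The TRT0_H calves lay close together, whereas the TRT6_C calves ran from 500.1 CPM to the highest value of the series. TRT12_H calves had 499, 808, 1157 and 1217 CPM, and TRT12_C calves 643, 729, 947, 961 and 1231 CPM. From lowest to highest, the group means were TRT0_C (792 CPM), TRT0_H (851 CPM), TRT6_H (898 CPM), TRT12_C (902 CPM), TRT12_H (920.2 CPM) and TRT6_C (939 CPM), and no neighbours in that order differed by more than the SD of either group. The fitted difference was 0.22 ± 0.21 (log2, SE) in TRT6 vs. TRT0 (95% interval of the fold 0.865 to 1.56), and it was 0.20 ± 0.21 in TRT12 vs. TRT0 (0.856 to 1.54). Between parities it was -0.06 ± 0.17 in C vs. H (0.752 to 1.22). The highest value, 1631 CPM, belonged to calf 4154 (TRT6_C, lane 1), whose library was the smallest, and the same calf had the highest TFRC (195 CPM) and HEPH (146 CPM). Without 1 calf at a time the TRT6 vs. TRT0 difference ranged from 0.06 to 0.31.

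HEPH, the multicopper oxidase that works beside SLC40A1, had a biological coefficient of variation of 19.7%, close to the 19.5% of the median gene. Its 27 values lay between 66.9 and 146 CPM, and 4 of the 5 TRT0_C calves lay between 90.2 and 94.7 CPM. The log2 difference was 0.19 ± 0.13 in TRT6 vs. TRT0 (95% interval of the fold 0.947 to 1.38), 0.06 ± 0.13 in TRT12 vs. TRT0 (0.866 to 1.26) and 0.01 ± 0.11 in C vs. H (0.862 to 1.17).

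SLC11A2, the importer of ferrous iron, had the largest fitted difference among the members in TRT12_C vs. TRT0_C, TRT12 vs. TRT0 and TRT6 vs. TRT0. That did not hold in every contrast. In C vs. H the log2 difference was -0.03 ± 0.26 for SLC11A2 and -0.22 ± 0.10 for FTL. In TRT0_C SLC11A2 stood at 70.8, 244, 285, 501 and 658 CPM, and in TRT12_C at 92.2, 97.9, 195, 202 and 208 CPM. Of the TRT0_C calves, 4 lay above all TRT12_C calves, and calf 4133 at 70.8 CPM lay below all of them. The log2 difference in TRT12_C vs. TRT0_C was -0.99 ± 0.42 (95% interval of the fold 0.277 to 0.915), with an unadjusted p of 0.0259 and an adjusted p of 0.475 (edgeR), so it did not pass, and 9.86% of all genes were under an unadjusted p of 0.05 in this contrast. Leaving out 1 calf at a time moved it between -1.24 and -0.64. Within lane 7 the 3 TRT0_C calves had 285 to 658 CPM and the 2 TRT12_C calves 97.9 to 195 CPM, while lane 6 held no TRT0_C calf. The summed epithelial markers lay between 1924 and 2706 CPM in TRT0_C and between 2536 and 3267 CPM in TRT12_C, and over the 27 calves SLC11A2 had r = 0.08 with them. The summed red cell markers, with which SLC11A2 had r = 0.60, lay between 1.57 and 5.81 CPM in TRT0_C (median 2.83) and between 0.733 and 5.16 CPM in TRT12_C (median 2.23). The part of either list in the SLC11A2 values was not tested.

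Among H calves, SLC11A2 stood at 115, 187, 240.1 and 374 CPM in TRT0_H and at 189.9, 194, 194 and 264 CPM in TRT12_H. These groups overlapped, and the TRT12_H values fell inside the range of TRT0_H. TRT6_H calves had 85.4, 242, 286 and 361 CPM and TRT6_C calves 75.4, 212, 252, 268 and 313 CPM, so each TRT6 group had 1 calf far below the others. Over both parities the log2 difference was -0.62 ± 0.31 in TRT12 vs. TRT0 (95% interval of the fold 0.418 to 1.01, unadjusted p = 0.0572, adjusted p = 0.553, edgeR) and -0.27 ± 0.31 in TRT6 vs. TRT0. Whether the treatment acted differently in H and C calves gave an unadjusted p of 0.366 for SLC11A2 and an adjusted p of 0.999 in the interaction test of edgeR.

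TFRC, the receptor for transferrin, ranged from 45.2 to 195 CPM. In TRT0_C it stood at 61.0, 65.6, 78.7, 97.5 and 99.3 CPM and in TRT12_C at 61.6, 66.3, 87.2, 144 and 177 CPM. The lower 3 calves of each group were alike and the upper 2 of TRT12_C lay above all TRT0_C calves. The log2 difference was 0.48 ± 0.32 in TRT12_C vs. TRT0_C (95% interval of the fold 0.886 to 2.21, adjusted p = 0.629, edgeR) and 0.40 ± 0.23 in TRT12 vs. TRT0 (0.947 to 1.83, adjusted p = 0.613, edgeR). In C vs. H it was -0.21 ± 0.19.

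**Figure D2:**
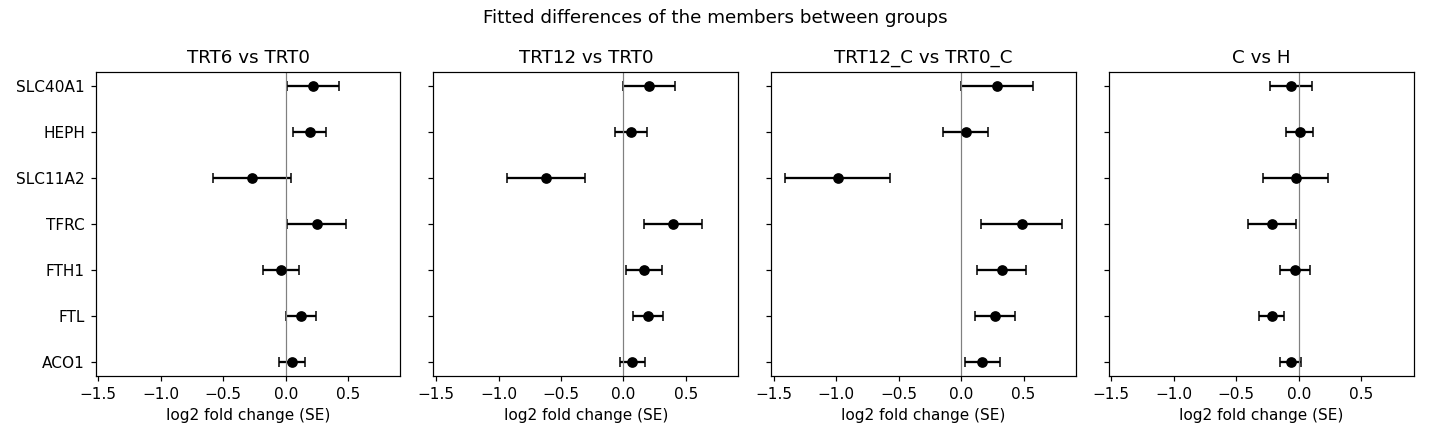
Log2 fold change (horizontal axes) of each member (vertical axis) with its SE, from edgeR, in TRT6 vs. TRT0, TRT12 vs. TRT0, TRT12_C vs. TRT0_C and C vs. H. The SLC11A2 point lies at -0.62 in TRT12 vs. TRT0 and at -0.99 in TRT12_C vs. TRT0_C, and no member passed an adjusted p of 0.10.

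The ferritin chains showed small differences. FTH1, the chain with ferroxidase activity, ranged from 116 to 299 CPM over the calves, with a median of 209 CPM in TRT0, 199 CPM in TRT6 and 213 CPM in TRT12. Its log2 difference was -0.04 ± 0.14 in TRT6 vs. TRT0, against 0.17 ± 0.14 in TRT12 vs. TRT0 (95% interval of the fold 0.916 to 1.37). The sign of the TRT6 difference turned when any of 5 calves was left out.

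FTL, the light chain that favours the mineral core, stood at 94.1, 105, 110.1 and 115 CPM in TRT6_H and at 59.9, 81.7, 91.9, 95.9 and 100.4 CPM in TRT6_C. The 3 highest TRT6_H calves lay above all TRT6_C calves. The log2 difference in TRT6_C vs. TRT6_H was -0.37 ± 0.17 (95% interval of the fold 0.604 to 0.988, unadjusted p = 0.0407, adjusted p = 0.998, edgeR), with 3.86% of all genes under an unadjusted p of 0.05. Over all treatments, FTL had a median of 100.6 CPM (75.0 to 134) in the 12 H calves and 91.3 CPM (59.9 to 125) in the 15 C calves, and these ranges overlapped. The difference in C vs. H was -0.22 ± 0.10 (0.748 to 0.989, unadjusted p = 0.0347, adjusted p = 0.9999, edgeR), with 2.52% of all genes under 0.05. Within lanes the C mean was below the H mean in lane 6 (92.4 and 97.3 CPM), in lane 7 (89.7 and 100.1 CPM) and in lane 1 (83.0 and 110.3 CPM). Lane 1 held only 2 H calves (86.7 and 134 CPM), both TRT12_H, and 3 C calves, from TRT0_C and TRT6_C. Parity and treatment cannot be told apart there. Ferritin genes are known to have near-identical copies in mammalian genomes, and reads assigned to more than 1 gene had been discarded, so the level of FTH1 and FTL is uncertain.

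ACO1, an aconitase that becomes an RNA-binding iron sensor when it loses its iron-sulphur cluster, was the steadiest member at 141 to 216 CPM. Its log2 difference was 0.05 ± 0.10 in TRT6 vs. TRT0 (95% interval of the fold 0.895 to 1.2), 0.07 ± 0.10 in TRT12 vs. TRT0 (0.910 to 1.21) and -0.06 ± 0.08 in C vs. H (0.849 to 1.08). Its SE was the smallest among the members in each of these contrasts.

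Ratios of members within a calf, which do not depend on the scaling of the library, were compared in 4 contrasts each. The ratio of SLC40A1 to SLC11A2 counts had a median of 2.31 (1.55 to 11.1) in TRT0, 3.88 (1.87 to 14.8) in TRT6 and 4.77 (2.57 to 7.44) in TRT12. The ranges overlapped, and the mean log2 ratio was 0.62 higher in TRT12 than in TRT0 (exact permutation p = 0.106, adjusted p = 0.763 over 12 comparisons, two-sided). Neither FTH1 to FTL nor TFRC to FTH1 gave a lower adjusted p in any contrast.

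Several members varied together across calves. Of the 21 pairs, 6 had a correlation of TMM-scaled log2 CPM with an adjusted permutation p under 0.05, the lowest at r = 0.48, and 7.13% of all pairs of the 13943 tested genes had an r of that size or larger in either direction. SLC40A1 and HEPH had r = 0.81 and rho = 0.77 (permutation p = 1e-05 for each, the smallest that 100000 permutations can give, adjusted p = 0.000105 for r and 0.00021 for rho). The value was 0.79 in lane 6, 0.68 in lane 7 and 0.73 without the 2 calves farthest from the median of SLC40A1, so it held within both lanes large enough to give one. The remaining lane had 5 calves, too few for a correlation.

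SLC40A1 and ACO1 had r = 0.74 and rho = 0.71 (permutation p = 1e-05 and 8e-05, adjusted p = 0.000105 and 0.00056), with 0.79 in lane 6, 0.44 in lane 7 and 0.71 without the 2 farthest calves. SLC40A1 and TFRC had r = 0.59 and rho = 0.56 (permutation p = 0.00124 and 0.00259, adjusted p = 0.00521 and 0.0109), with 0.22 in lane 6, 0.73 in lane 7 and 0.49 without the 2 farthest calves. The relation of SLC40A1 with TFRC was thus weak in lane 6. SLC40A1 and SLC11A2 had r = 0.15 and rho = 0.14 (permutation p = 0.448 and 0.484, adjusted p = 0.553 and 0.598), with 0.25 in lane 6, 0.19 in lane 7 and 0.17 without the 2 farthest calves. In lanes 6 and 7, SLC11A2 had r = 0.69 and -0.22 with FTL, 0.66 and -0.40 with ACO1, and 0.30 and -0.65 with FTH1. With TFRC the lane values were -0.34 and 0.11, and with HEPH 0.09 and 0.16.

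**Figure D3:**
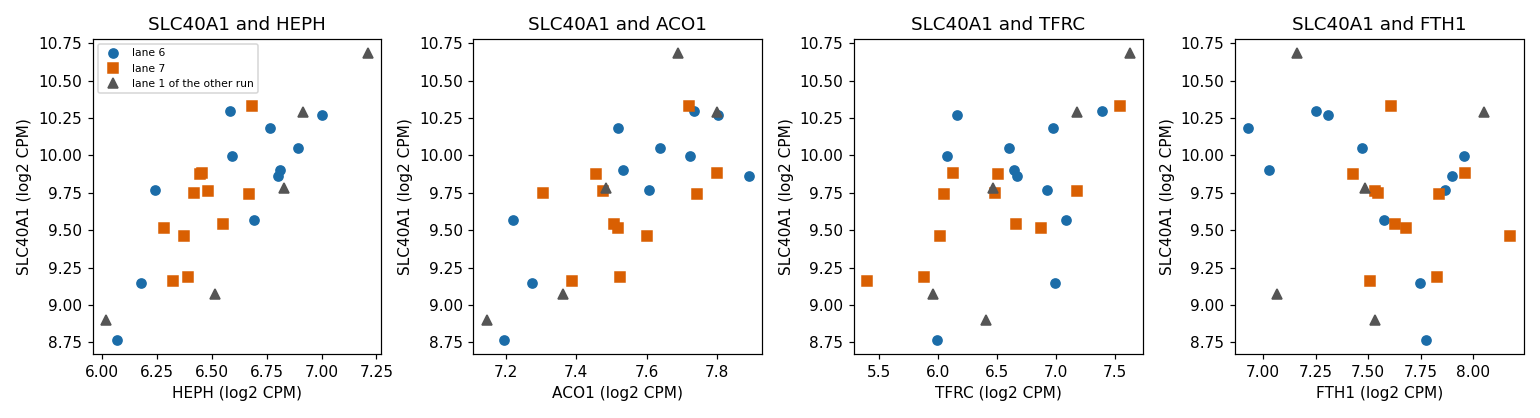
SLC40A1 (vertical axes) against HEPH, ACO1, TFRC and FTH1 (horizontal axes), each as TMM-scaled log2 CPM, with 1 point per calf and symbols for the sequencing lane. The points rise together for HEPH (r = 0.81) and ACO1 (r = 0.74), less tightly for TFRC (r = 0.59), and show no such rise for FTH1 (r = -0.23).

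FTL and ACO1 had r = 0.67 and rho = 0.75 (permutation p = 0.00019 and 3e-05, adjusted p = 0.00133 and 0.000315), with 0.59 in lane 6, 0.81 in lane 7 and 0.70 without the 2 farthest calves. HEPH and ACO1 had r = 0.61 and rho = 0.57 (permutation p = 0.0006 and 0.00183, adjusted p = 0.00315 and 0.00961), with 0.59 in lane 6, 0.54 in lane 7 and 0.55 without the 2 farthest calves, but r fell to 0.32 (adjusted permutation p = 0.242) with library totals in place of TMM factors. FTH1 and FTL had r = 0.48 and rho = 0.45 (permutation p = 0.0122 and 0.0194, adjusted p = 0.0427 and 0.0606), with 0.43 in lane 6, 0.58 in lane 7 and 0.39 without the 2 farthest calves, so the chains of 1 protein complex were less tightly related than SLC40A1 and HEPH by value, a difference that was not tested.

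FTH1 did not rise with the exporter. SLC40A1 and FTH1 had r = -0.23 and rho = -0.23 (permutation p = 0.26 and 0.251, adjusted p = 0.39 and 0.377), with -0.50 in lane 6, -0.18 in lane 7 and -0.10 without the 2 farthest calves. After a straight-line fit of each gene on the summed epithelial markers, an alternative chosen after seeing the data, the residuals of SLC40A1 and FTH1 had r = -0.67 and rho = -0.58 (permutation p = 0.0001 and 0.00169, adjusted p = 0.00105 for r over the 21 pairs), with -0.74 in lane 6, -0.45 in lane 7 and -0.62 without the 2 farthest calves. Residuals of FTH1 and HEPH had r = -0.65 and rho = -0.57 (permutation p = 0.0003 and 0.00218, adjusted p = 0.00168 for r), with -0.72 in lane 6, -0.15 in lane 7 and -0.53 without the 2 farthest calves. Residuals of FTH1 and TFRC had r = -0.51 and rho = -0.50 (permutation p = 0.00674 and 0.0087, adjusted p = 0.0189 for r), with -0.40 in lane 6, -0.53 in lane 7 and -0.38 without the 2 farthest calves. For FTH1 with ACO1, SLC11A2 and FTL the residuals had r = -0.05, -0.06 and 0.28 (permutation p = 0.801, 0.753 and 0.161). Over all calves, SLC40A1 and FTH1 each rose with the epithelial markers (r = 0.53 and 0.50). Removing a part that both genes share lowers their r, so the residual values cannot show on their own that these genes oppose each other. The fitted relation of SLC40A1 with the epithelial markers was itself near 0 in lane 6 (r = -0.01). That of FTH1 fell to 0.33 with mean z scores of the markers.

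Marker levels of other cell types moved with several members. Of 35 pairs of a member and a marker list, 11 had an adjusted permutation p under 0.05, and 7 did without calf 4168 (TRT12_H). The lowest of the 11 in size was 0.49. Among all tested genes outside the lists, r reached that size in either direction for 13.4% with the epithelial list, where 4 of the 7 members passed, and for 8.7% with PTPRC, where 3 did. It did so for 4.59% with the macrophage list (3 members), for 4.99% with the smooth muscle list (0 members) and for 0.481% with the red cell list (1 member), or for 6.44% over the 5 lists together. PTPRC (CD45), which marks leukocytes, lay between 29.8 and 186 CPM, at 48.8 to 129.8 CPM in TRT0, 29.8 to 178 CPM in TRT6 and 42.6 to 186 CPM in TRT12. SLC40A1 had r = -0.78 and rho = -0.71 with PTPRC (permutation p = 1e-05 and 9e-05, adjusted p = 0.000175 and 0.00105), with -0.85 in lane 6, -0.20 in lane 7 and -0.68 without the 2 farthest calves. The 3 calves with the most PTPRC (4108, 4144 and 4117, at 129.8, 178 and 186 CPM) had SLC40A1 at 535, 500.1 and 499 CPM, the 3 lowest values of the series. ACO1 had r = -0.82 and rho = -0.75 with PTPRC (permutation p = 1e-05 and 2e-05, adjusted p = 0.000175 and 0.0007), with -0.84 in lane 6, -0.65 in lane 7 and -0.74 without the 2 farthest calves. HEPH had r = -0.72 and rho = -0.71 (permutation p = 5e-05 and 7e-05, adjusted p = 0.000583 and 0.00105), with -0.74 in lane 6, -0.25 in lane 7 and -0.58 without the 2 farthest calves.

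**Figure D4:**
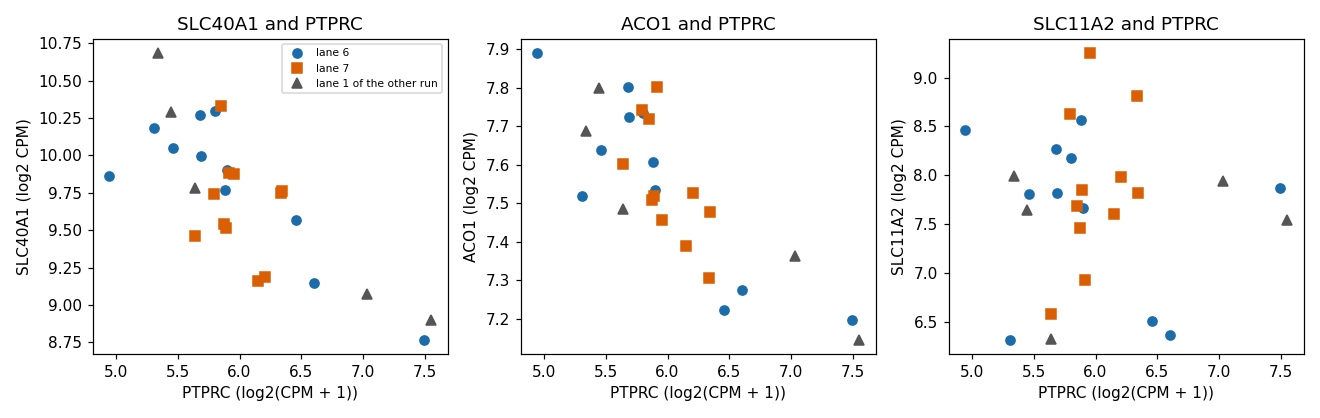
SLC40A1, ACO1 and SLC11A2 as TMM-scaled log2 CPM (vertical axes) against PTPRC as log2(CPM + 1) (horizontal axes), with 1 point per calf and symbols for the sequencing lane. SLC40A1 (r = -0.78) and ACO1 (r = -0.82) are lower in calves with more PTPRC, and SLC11A2 (r = -0.03) is not.

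The epithelial markers, summed over 9 genes, lay between 1924 and 2728 CPM in TRT0, 2082 and 2939 CPM in TRT6 and 2017 and 3429 CPM in TRT12. Their level rose with FTL (r = 0.55, rho = 0.55, permutation p = 0.00322 and 0.00377, adjusted p = 0.0141 and 0.0189, 0.73 in lane 6, 0.15 in lane 7, 0.51 without the 2 farthest calves). With SLC40A1 the relation was r = 0.53 and rho = 0.47 (permutation p = 0.00448 and 0.0147, adjusted p = 0.0174 and 0.0468), but -0.01 in lane 6 against 0.57 in lane 7, with 0.43 without the 2 farthest calves. It therefore did not hold within lane 6. FTH1 had r = 0.50 and rho = 0.48 (permutation p = 0.00767 and 0.0114, adjusted p = 0.0268 and 0.0399), with 0.72 in lane 6, 0.39 in lane 7 and 0.47 without the 2 farthest calves. ACO1 had r = 0.49 and rho = 0.50 (permutation p = 0.00884 and 0.00882, adjusted p = 0.0281 and 0.0343), with 0.22 in lane 6, 0.38 in lane 7 and 0.41 without the 2 farthest calves. For FTH1, r fell to 0.33 and no longer passed with mean z scores of the markers.

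The macrophage list had 2 of 11 markers with an identifier, CSF1R and MARCO, the latter with 0 reads in 11 calves, so its sum was in effect CSF1R. It lay between 47.7 and 88.5 CPM in TRT0, 37.4 and 112.9 CPM in TRT6 and 48.4 and 97.3 CPM in TRT12. 3 members were lower in calves with a higher sum. The sum itself had r = 0.75 with PTPRC, so the relations of members with PTPRC and with this sum are not independent. HEPH had r = -0.60 and rho = -0.61 (permutation p = 0.00106 and 0.00107, adjusted p = 0.00742 and 0.00936), with -0.62 in lane 6, -0.35 in lane 7 and -0.54 without the 2 farthest calves. ACO1 had r = -0.57 and rho = -0.57 (permutation p = 0.00203 and 0.00228, adjusted p = 0.0118 and 0.016), with -0.73 in lane 6, -0.05 in lane 7 and -0.59 without the 2 farthest calves. SLC40A1 had r = -0.55 and rho = -0.51 (permutation p = 0.00288 and 0.00672, adjusted p = 0.0141 and 0.0294), with -0.80 in lane 6, 0.27 in lane 7 and -0.44 without the 2 farthest calves. The relation of SLC40A1 thus turned in sign within lane 7, and that of ACO1 was near 0 there. SLC11A2 rose with the red cell markers (r = 0.60, rho = 0.55, permutation p = 0.00093 and 0.00309, adjusted p = 0.00742 and 0.018, 0.80 in lane 6, 0.29 in lane 7, 0.62 without the 2 farthest calves), of which HBG and HBQ1 were the 2 of 8 with an identifier, summing to 0.423 to 9.89 CPM. The sum lay at 0.423 to 5.86 CPM in TRT0, 0.593 to 9.89 CPM in TRT6 and 0.733 to 6.19 CPM in TRT12, a few reads per library. The part of cell composition in the members' values was not tested. Smooth muscle markers passed with 0 members.

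**Figure D5:**
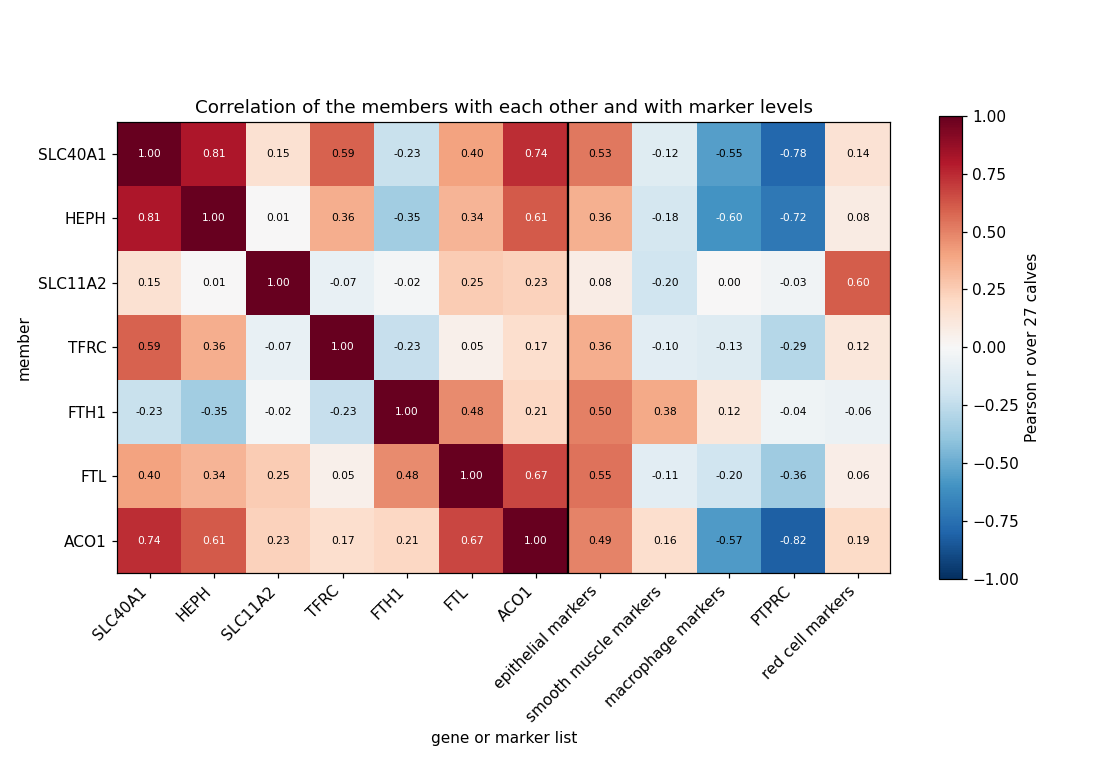
Pearson r over 27 calves of each member (rows) with the other members and with the log2 summed CPM of 5 marker lists (columns), on a colour scale from -1 to 1. SLC40A1, HEPH and ACO1 form a positive block (0.61 to 0.81) and share negative values with PTPRC (-0.82 to -0.72). SLC11A2 has values from -0.07 (TFRC) to 0.25 (FTL) with the other members, pooled over lanes that differed in sign for several pairs.

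Over the 13943 genes tested, the median correlation with SLC40A1 was -0.03, and 16 genes lay above HEPH (0.115% of the other genes) and 91 above ACO1. The genes most like SLC40A1 over the 27 calves were TMEM45B (r = 0.87), ENSBTAG00000003162 (0.87), ENSBTAG00000000668 (0.86), PCK2 (0.86), TGOLN2 (0.85), ENSBTAG00000014599 (0.85), PHYH (0.85), CDH17 (0.85), ENSBTAG00000021587 (0.84) and F11R (0.84). CDH17 is a cadherin of intestinal epithelium and F11R a junctional adhesion molecule. Centred within lanes, these 10 had r between 0.84 and 0.88. FTH1 was most like CKB, a creatine kinase (r = 0.92), FTL most like IMPAD1 (0.81), HEPH most like ENSBTAG00000011767 (0.88) and ACO1 most like HADHA, an enzyme of fatty acid oxidation (0.89). TFRC and SLC11A2 had no gene as close, at 0.67 for KIAA0196 with TFRC and 0.75 for ENSBTAG00000046231 with SLC11A2. These values describe 27 shared libraries and carry no test.

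A wider list of 53 iron genes was limited by the names at hand: 20 had an identifier and 19 passed the filter on low counts, MELTF being the exception. Of the 19, 0 were called in any of the 13 contrasts (edgeR, 0.0% of all genes), and 7 of 247 tests had an unadjusted p under 0.05, against 4.19% over all genes. Those 7 were 2 of 19 in TRT12 vs. TRT0 (9.37% of all genes), 3 in TRT12_C vs. TRT0_C (9.86%) and 2 in TRT12_C vs. TRT6_C (6.71%). In TRT12 vs. TRT0, 12 of the 19 had a positive fitted difference (median log2 0.07, while the 7 members had a median of 0.17), where 49.3% of all genes did (median -0.0039). In C vs. H 6 of 19 did (median -0.03, and -0.06 for the members), where 48.9% of all genes did (median -0.0036). Named by their level, LRP1, a receptor that clears haem bound to hemopexin, averaged 1434 ± 235 CPM and EPAS1 (HIF-2 alpha), which drives iron transporter genes in enterocytes, 1199.5 ± 269.8 CPM. PCBP2, an iron chaperone, averaged 224 CPM, NEO1, a coreceptor of hepcidin control, 160.1 CPM, and CUBN, an endocytic receptor, 159 CPM. CUBN spread from 45.1 to 343 CPM, whereas PCBP2 stayed between 183 and 265 CPM. With sequencing lane as the tested factor, LRP1 was called (adjusted p = 0.0989, edgeR), while NCOA4, the receptor for ferritin degradation, HIF1A and NFE2L2 had an unadjusted p under 0.05; that made 1 of 19 called, against 4.19% of all genes, and 4 of 19 under 0.05, against 17.6%.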

How the data were processed

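RNA from 27 colon segments had been sequenced by the study as unstranded TruSeq libraries. The authors deposited raw gene counts, made by alignment to UMD 3.1 with Tophat 2.1.1, sorting with Samtools 1.4 and counting with HTSeq-count, in which reads assigned to more than 1 gene were discarded; the HTSeq version, annotation release and strand setting are not given in the sources used here, so overlapping and antisense genes are uncertain. Treatment came from the labels and dam parity from a supplementary table. Totals lay between 1163791 and 4202593 counts, and among 351 pairs of calves 0 had identical counts.

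CPM was computed over the gene counts of each calf. The 13943 genes that reached 1 CPM in 5 or more of the 9 calves of every treatment were tested with edgeR 4.0.16 in R 4.3.3 (TMM factors 0.887 to 1.15, quasi-likelihood). An additive model of treatment plus parity gave 4 overall contrasts, and 6 group means gave 9 contrasts within treatment or parity and the interaction. Intervals of a fold (95%) used the t quantile on the degrees of freedom of that test. Genes were called at an adjusted p of 0.10 and a fold change of 1.2. Correlations across calves used TMM log2 CPM (prior count 2) of the members and 100000 permutations, with Python 3.11.15, numpy 2.4.6 and scipy 1.17.1. Their p values were adjusted over 21 member pairs or 35 member and marker pairs. Marker levels, also in the fits on the epithelial markers, were log2(summed CPM + 1) over library totals, without TMM factors. The tests were tested on simulated data. In the simulated counts all genes had the same spread, and the changes were larger than most of those fitted for the members. The power to find differences in the members was therefore not measured. Alternatives were DESeq2 1.42.0, edgeR's likelihood ratio and exact tests, other scalings and filters, lane as a covariate, equal weights for the 6 groups and leaving out each calf.

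The members and the gene lists were chosen with earlier results of these data known. Members were always named; other iron genes were named for the 5 highest mean CPM, for a call, or for an unadjusted p under 0.05 in the tests of treatment, parity, interaction or lane, and the genes most like each member by Pearson r. Symbols were matched through the study's supplementary tables, which name 4046 genes, and no sequence, transcript length or coordinate was used here.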

Additional observations from a re-analysis of the deposited data

Results flagged for a closer look

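In each group of 4 to 10 calves, the highest and the lowest value of each member were compared with the nearest other value relative to the range of the group, for 63 combinations of member and group. Chance flags about 1 in 20 groups, and 2 of the 63 were flagged. FTL in TRT0_H was lowest in calf 4135, at 75.0 CPM, where the next calf had 98.7 CPM. SLC11A2 in TRT12_H was highest in calf 4139, at 264 CPM, where the next calf had 194 CPM.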

How the results depend on the processing

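Of 64 alternatives to a count of members called, 63 gave the same count, as did all 216 that left out a calf. The exception was the test of sequencing lane without the low-count filter, which called 1 member, SLC11A2 (adjusted p = 0.0131, edgeR, against 0.664 with the filter); the cause was not tested. Over all genes, DESeq2 called 51 in TRT12 vs. TRT0 and the exact test 9 there and 93 in TRT12_C vs. TRT0_C, where the quasi-likelihood test called 0, and no member was among them. The number of member pairs with a correlation past the threshold was 6, between 5 and 8 under the other settings and between 5 and 6 when 1 calf was left out. The number of member and marker pairs was 11, between 8 and 11 under other settings and between 7 and 12 when 1 calf was left out, with 7 without calf 4168 (TRT12_H). The HEPH difference in TRT12_C vs. TRT0_C was 0.036 but -0.044 with library totals, and -0.068 to 0.12 when 1 calf was left out. Those of FTH1 (-0.096 to 0.021) and ACO1 (-0.0034 to 0.092) in TRT6 vs. TRT0 also changed sign when 1 calf was left out. Of 311 alternatives to a single value, 292 kept direction and side of the threshold. Leaving out the 10 highest genes, which took 30.6% to 43.1% of the counts, raised the mean of SLC40A1 to 1430.1 CPM and those of FTH1, FTL, TFRC, HEPH, SLC11A2 and ACO1 to 314, 152, 164, 153, 379.9 and 300.3 CPM. The relation of SLC40A1, HEPH and ACO1 with the macrophage sum no longer passed with TMM-scaled sums (r = -0.42, -0.45 and -0.43), a setting chosen after seeing the data. FTH1 and FTL no longer passed when values were centred within the 6 groups (r = 0.46). Nor did their residuals from the fit on the epithelial markers, also chosen after seeing the data (r = 0.28, permutation p = 0.161, adjusted p = 0.374). No paired analysis was possible because replicate numbers are calf numbers, shared by no groups. On the log2 scale, the SEs of the fitted differences of SLC11A2 and TFRC were the largest among the members in each of the 13 contrasts.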
